A study of Mus musculus with 6 samples.

Results

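The secreted factors of brown fat, or batokines, were examined in interscapular brown adipose tissue (iBAT) of control and *ob/ob* mice. The 8 members are the growth factors and cytokines *Fgf21*, *Nrg4*, *Bmp8b*, *Il6*, *Igf1*, *Metrnl*, *Slit2*, and *Gdf15*. They were chosen by gene symbol, and their probes were those whose RefSeq accession maps to 1 of these symbols. The array carried 13 such probes among those of 20630 named genes, and 6 of the 8 members (10 probes) were detected well enough to be tested, among 19011 genes tested. The 2 members not tested were *Fgf21* and *Il6*.

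Total RNA of each sample was labeled with the dye Cy3 and hybridized to an Agilent 1-color whole-genome mouse array, which gives 1 brightness per spot. There were 3 control and 3 *ob/ob* samples, all from male mice on the C57BL/6 background at 16 weeks of age, with no treatment named for either group. The *ob/ob* mice lack working leptin in every tissue from birth, so the genotype is not restricted to brown fat. The genotype of the other group is given only as control, and nothing in the labels says whether the animals were littermates or whether a sample was 1 mouse or a pool. The p-values therefore measure only the spread between these samples.

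Brown adipocytes burn fuel to make heat, and the tissue also releases signals that act on nerves, vessels, liver, and other fat depots. The ligands examined here belong to several families, each with its own receptors. FGF21 acts through an FGF receptor with the coreceptor beta-Klotho, neuregulin 4 through ErbB receptors, BMP8B through BMP type I and type II receptors, IL-6 through its own receptor chain with gp130, IGF-1 through the IGF-1 receptor, meteorin-like through KIT, SLIT2 through Robo receptors, and GDF15 through GFRAL with RET.

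All levels below are log2 intensities, taken as the mean over spots of a probe after log transformation, with quantile normalization across the 6 arrays, and all differences are *ob/ob* minus control on that scale. A probe counted as detected on an array where at least 50% of its spots were flagged well above background, and it was tested where it was detected on at least 3 of the 6 arrays. The levels of different probes depend on each probe's binding and are not compared with each other. In whole tissue, fewer cells of a type and less RNA per cell cannot be told apart.

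Before any member is described, 2 arrays have to be named that stood apart from their groups. Control 3 had a Spearman correlation over all tested probes of 0.915 with *ob/ob* 1 and 0.944 with *ob/ob* 2, against 0.642 with control 1 and 0.730 with control 2. Conversely, *ob/ob* 3 was closer to control 1 (0.858) than to *ob/ob* 1 (0.573) or *ob/ob* 2 (0.488). Signals before normalization had a 75th percentile of 94.5 to 291.8 per array, 83.5% to 89.9% of spots were well above background, and 0 spots were saturated. The same scan covered control 1, control 3, and *ob/ob* 1, whereas the other 3 arrays were scanned singly. Whether these 2 samples were exchanged was not tested, and the groups are used as labeled, so each difference below depends on that labeling. Results are therefore given also without control 3 and *ob/ob* 3, as a description of the remaining 4 arrays, because these arrays are left out for their values.

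The tissue and the genotype were checked on *Ucp1*, the uncoupling protein that defines brown fat, and on *Lep*, the leptin gene that carries the ob mutation. *Ucp1* was detected on every array, with levels of 13.05, 11.72, and 9.48 in the controls and 8.93, 9.12, and 10.03 in *ob/ob* iBAT (log2 fold change -2.06, SE 0.92, limma p = 0.0642, exact permutation p = 0.20). Control 3 lay below *ob/ob* 3, so the groups overlapped. *Lep* mRNA was at 5.74, 4.57, and 5.30 in the controls and 6.68, 5.83, and 9.33 in *ob/ob* iBAT (2.07, SE 0.93, limma p = 0.0641, exact permutation p = 0.10). For *Lep*, the lowest *ob/ob* array exceeded the highest control, as was so for 3.78% of all genes tested. The difference was 0.96 without *ob/ob* 3 and 2.88 without *ob/ob* 2, and the probe measures the amount of mRNA and does not read the mutation. For *Ucp1*, leaving out control 1 gave -1.22.

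Markers of several cell types moved with the 2 unusual arrays, as the plot of marker levels shows. The 12 brown adipocyte markers had mean levels of 10.15, 9.74, and 7.80 in the controls, against 7.19, 7.19, and 8.04 in *ob/ob* iBAT. Of these markers 11 were lower in *ob/ob* iBAT, where 57.2% of all genes tested were, and 3 of the 12 were lower at an unadjusted limma p under 0.05, where 1.69% of all genes were. Their median difference was -2.07. The 12 skeletal muscle markers had mean levels of 9.62, 9.95, and 7.59 in the controls, against 5.98, 5.99, and 10.93 in *ob/ob* iBAT. For 11 of 12 muscle, 8 of 8 fibroblast, 7 of 8 endothelial, and 7 of 12 brown adipocyte markers, each of control 1, control 2, and *ob/ob* 3 lay above each of the other arrays. The exceptions in muscle and endothelium were *Mylpf*, at 3.68 to 5.59, and *Pecam1*, which ran the opposite way and was lowest on *ob/ob* 3 (9.80). The same split held for 1 of 9 macrophage, 1 of 8 white adipocyte, and 1 of 6 Schwann cell and nerve markers. It held for 2 of 3 erythrocyte and 0 of 8 lymphocyte markers. The reverse split was most frequent among lymphocyte (4) and Schwann cell and nerve (3) markers. How many of all genes have this split was not counted. The mean of the 9 macrophage markers ranged only from 7.14 to 7.84, but single ones moved more and not together, such as *Mrc1*, highest on *ob/ob* 3 (9.98), and *Csf1r*, highest on *ob/ob* 1 (10.35). All listed markers of brown adipocytes, muscle, fibroblasts, and endothelium were detected on at least 3 arrays. Of the 10 listed macrophage markers, 9 had a named probe and all 9 were so detected, whereas *Cd68* had no named probe. The part of cell makeup in the differences below was not tested.

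**Figure D1:**
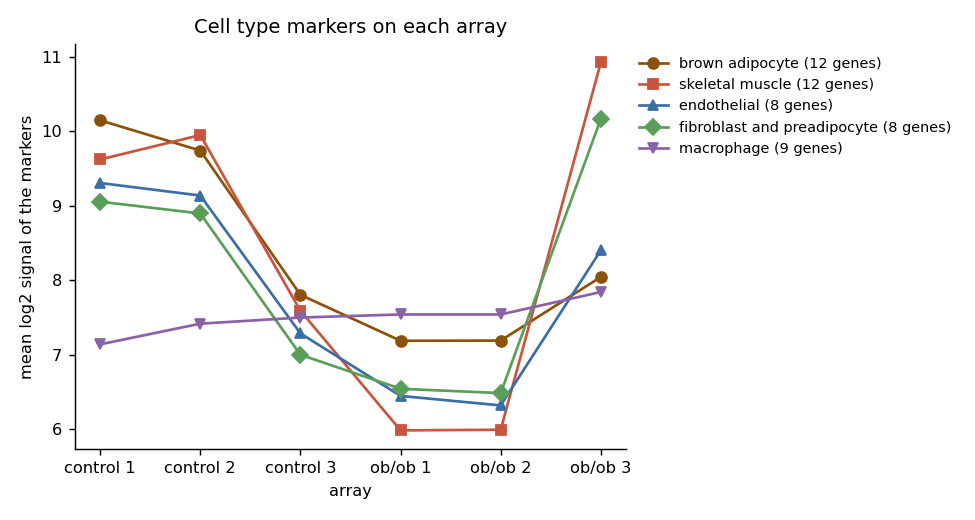
The vertical axis gives the mean log2 signal of the markers of 5 cell types and the horizontal axis the 6 arrays, with 1 line and symbol per cell type. Skeletal muscle markers sit at 5.98 and 5.99 on *ob/ob* 1 and 2 but at 10.93 on *ob/ob* 3, and brown adipocyte markers are highest on control 1 and control 2.

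Across all genes, limma passed 0 of 19011 at an adjusted p under 0.05 (0%). At the level of single probes the lowest adjusted p was 0.154, the methods' unpaired test also passed 0 after adjustment, and 1245 of 35448 probes (3.51%) had an unadjusted limma p under 0.05. Without adjustment, 322 genes (1.69%) had lower and 388 (2.04%) had higher levels in *ob/ob* iBAT at p under 0.05. Among the members, represented by their brightest probe, 0 of 6 reached that level. All 3 *ob/ob* arrays lay below all 3 controls for 803 genes (4.22%) and above them for 718 genes (3.78%), and this held for 0 of the 6 tested members. The median log2 fold change over all genes was -0.09, and the 6 members had 3 values above 0 and 3 below.

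*Nrg4* encodes neuregulin 4, an EGF-family ligand enriched in brown fat that signals to the liver and to nerves. The gene lies on chr9:55220222-55283654 of GRCm38.p6 on the minus strand, with 4 RefSeq transcripts, and 2 probes read it. The brighter probe was at 7.16, 7.48, and 9.71 in the controls and 9.67, 9.51, and 6.74 in *ob/ob* iBAT. Control 3, *ob/ob* 1, and *ob/ob* 2 were high and the other 3 arrays low, so the groups overlapped. The means were 8.12 ± 1.39 and 8.64 ± 1.65 (SD, n = 3), the log2 fold change was 0.53 (SE 1.03, 95% interval -1.96 to 3.01), and the exact permutation test gave p = 1. Without control 3 and *ob/ob* 3 the same probe differed by 2.22.

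The other *Nrg4* probe was at 9.43, 9.73, and 7.81 in the controls and 7.22, 6.98, and 7.46 in *ob/ob* iBAT. All 3 *ob/ob* arrays were below all 3 controls, with control 3 nearest to them. Mean levels were 8.99 ± 1.03 and 7.22 ± 0.24 (SD, n = 3), a log2 fold change of -1.77 (SE 0.56, 95% interval -3.13 to -0.41), or 3.41-fold lower. Its unadjusted limma p of 0.0187 was the only 1 under 0.05 among the 10 tested member probes, where 1.52% of all single probes were lower at that level and 4.19% had every *ob/ob* array below every control. After adjustment over all probes limma gave an adjusted p = 1.0, and the two-sided exact permutation test gave p = 0.10, the smallest that 3 arrays against 3 allow.

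For this second probe, the difference was -1.40 within the shared scan, where 1 *ob/ob* array meets 2 controls. Leaving out each array in turn gave -2.40 to -1.42. The unadjusted limma p stayed under 0.05 in 10 of 16 alternatives and did not with the scan block, with the replicate block, or without control 1, control 2, *ob/ob* 1, or *ob/ob* 2. Without both control 3 and *ob/ob* 3 the difference was -2.40. The probes of *Nrg4* therefore differed in sign between groups. Of 4726 genes with 2 or more tested probes, 46.4% likewise held probes of opposite sign. Which *Nrg4* transcripts each probe reads was not analyzed here.

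The window of 250 bases before the listed start site of *Nrg4*, from RefSeq (GRCm38.p6, chr9:55283626-55283875, minus strand), is printed with those of *Gdf15* (chr8:70632457-70632706, minus strand) and *Igf1* (chr10:87860861-87861110, plus strand). These 3 are shown because they are the members whose windows hold AGGTCA. The *Igf1* window lies within the span of the gene, because other transcripts start farther upstream. The windows of *Bmp8b* and *Slit2*, not printed, also lie within their genes. Those of *Nrg4* and *Gdf15* overlap the upstream ends of their genes, at 55283654 and 70632470. Capitals mark AGGTCA on either strand, the core read by many nuclear receptors, which appears as TGACCT where it lies on the opposite strand.
Nrg4: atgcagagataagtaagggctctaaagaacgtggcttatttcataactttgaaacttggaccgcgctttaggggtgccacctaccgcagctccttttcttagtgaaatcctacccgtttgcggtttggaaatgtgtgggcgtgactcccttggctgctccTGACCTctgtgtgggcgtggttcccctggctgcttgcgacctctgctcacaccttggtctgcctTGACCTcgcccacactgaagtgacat
Gdf15: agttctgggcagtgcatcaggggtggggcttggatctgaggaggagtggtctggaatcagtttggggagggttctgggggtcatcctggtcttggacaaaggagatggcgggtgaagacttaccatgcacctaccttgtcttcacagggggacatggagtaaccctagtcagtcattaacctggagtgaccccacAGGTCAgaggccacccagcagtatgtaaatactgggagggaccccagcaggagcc
Igf1: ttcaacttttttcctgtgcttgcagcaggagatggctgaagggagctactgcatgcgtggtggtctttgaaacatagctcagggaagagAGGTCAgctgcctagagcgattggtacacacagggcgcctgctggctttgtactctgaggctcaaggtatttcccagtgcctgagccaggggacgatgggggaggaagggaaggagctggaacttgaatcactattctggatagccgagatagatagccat

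The *Nrg4* window held 2 such matches, beginning at positions -90 and -26 from the start site, the latter within the annotated gene. The *Gdf15* and *Igf1* windows held 1 each, beginning at -55 and -161. Of 32851 RefSeq windows of this length, 14.0% held at least 1 match. The windows of *Bmp8b* and *Metrnl* matched none of the motifs searched on both strands, which also included TGACG (the core of the cAMP response element, in 17.8% of windows), TGATGNAA (the stress element bound by ATF4 with C/EBP partners, 3.45%), CACGTG (an E-box, 6.02%), and TATAAA (the TATA box, 12.4%). The *Fgf21* window held each of the latter 4 motifs once, the *Il6* window held TGACG, and the *Slit2* window held TATAAA. No match overlapped another motif. A match of letters is a description and not a binding site.

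*Fgf21*, a hormone of the FGF family that is released by liver and by stressed or cold-exposed fat, was not well above background on any array. Its probe was at 1.80, 1.76, and 2.10 in the controls and 1.83, 2.09, and 2.0 in *ob/ob* iBAT. The dimmest probe still called well above background on any array was at 3.63, so all 6 values lie beneath that floor and no fold is given. The gene lies on chr7:45613890-45615490 and has 1 RefSeq transcript.

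Both members of the TGF-beta superfamily were detected on all 6 arrays. *Bmp8b* (chr4:123104308-123126094), a ligand that raises the response of brown fat to sympathetic nerves, was at 6.03, 6.19, and 6.77 in the controls and 6.54, 6.63, and 5.72 in *ob/ob* iBAT. The lowest and the highest of the 6 values thus came from *ob/ob* 3 and control 3. The log2 fold change was -0.03 (SE 0.41, 95% interval -1.01 to 0.96, limma p = 0.944, exact permutation p = 1.0). *Bmp8a*, its near-identical neighbor, was at 9.12, 9.38, and 9.11 in the controls and 9.68, 9.76, and 7.62 in *ob/ob* iBAT, and the similarity of the genes leaves the split of signal between their probes uncertain. Its log2 fold change was -0.18 (SE 0.63, limma p = 0.781, exact permutation p = 1.0). Without control 3 and *ob/ob* 3, both values changed sign, to 0.42 for *Bmp8b* and 0.48 for *Bmp8a*.

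*Gdf15* (chr8:70629393-70632470), a hormone of mitochondrial and metabolic stress that acts on the brainstem, was at 7.33, 7.30, and 8.84 in the controls and 8.42, 8.92, and 7.54 in *ob/ob* iBAT. Control 3 lay between *ob/ob* 1 and 2, and *ob/ob* 3 was next to control 1 and 2. The means were 7.82 ± 0.88 and 8.29 ± 0.70 (SD, n = 3), with a log2 fold change of 0.47 (SE 0.59, 95% interval -0.96 to 1.89), and the exact permutation p was 0.50. Over the 17 alternative settings *Gdf15* ranged from 0.16 to 1.30, the highest being the value without control 3 and *ob/ob* 3. Several of these settings change only the test or the probes kept, so they could not turn its direction. The *Gdf15* difference in the full data was smaller than the spread between arrays of a group.

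*Il6* (chr5:30013114-30019975) encodes a cytokine made by immune cells, muscle, and fat. It was detected on 1 array of each group and was not tested. Control 1 was at 6.76 and *ob/ob* 3 at 9.0, whereas the 4 arrays below detection read 3.69 in control 2, 1.76 in control 3, 1.86 in *ob/ob* 1, and 1.75 in *ob/ob* 2. Control 1 and *ob/ob* 3 are also arrays with high muscle and fibroblast markers, and control 2 has such markers without detected *Il6*.

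*Igf1* (chr10:87858265-87937047), the growth factor that mediates much of the action of growth hormone, has 21 RefSeq transcripts and was read by 4 probes. The brightest was at 9.14, 9.55, and 7.84 in the controls and 8.10, 7.62, and 10.07 in *ob/ob* iBAT. This probe was highest on *ob/ob* 3 and low on control 3, *ob/ob* 1, and *ob/ob* 2. The log2 fold change was -0.24 (SE 0.78, 95% interval -2.12 to 1.64, limma p = 0.767, exact permutation p = 0.90). The second probe put the arrays in the same order, at 9.0, 9.35, and 7.39 in the controls and 7.78, 7.13, and 10.01 in *ob/ob* iBAT. It differed between groups by -0.27 (SE 0.89).

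The third *Igf1* probe ran opposite to the first, at 7.15, 7.31, and 8.36 in the controls and 7.90, 7.98, and 6.35 in *ob/ob* iBAT. The dimmest probe again followed the first, at 7.10, 6.46, and 4.58 in the controls and 4.88, 3.93, and 9.24 in *ob/ob* iBAT, with *ob/ob* 2 not well above background. Between groups these probes differed by -0.19 (SE 0.59) and -0.03 (SE 1.46). Without control 3 and *ob/ob* 3, the 4 probes in order of brightness gave -1.45, -1.66, 0.67, and -2.19. The *Igf1* probes thus split 3 to 1 in direction on the remaining arrays. No correlation between probes is given, since the arrays lie in separate clusters.

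**Figure D2:**
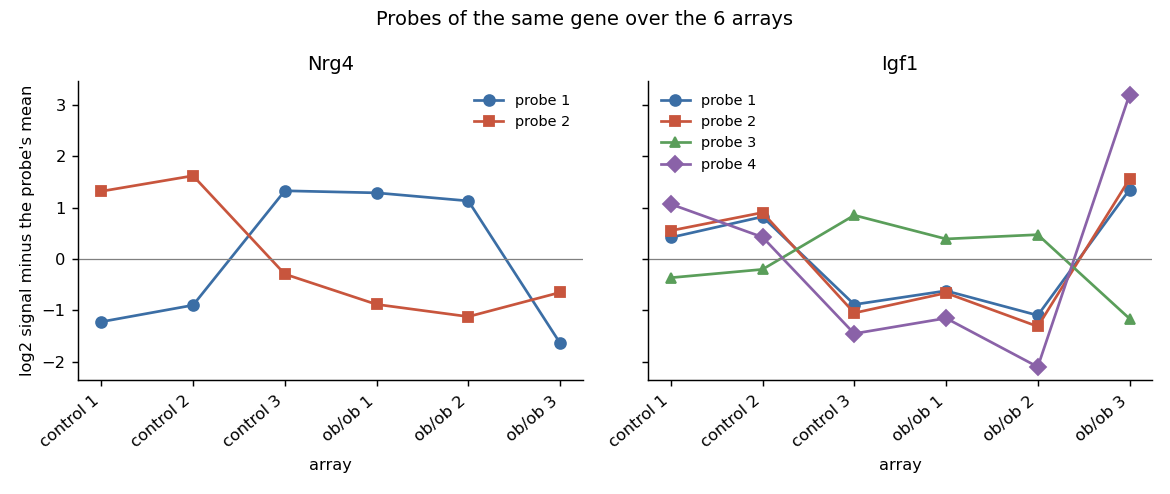
The log2 signal of each probe, minus its own mean over the 6 arrays, is plotted on the vertical axis against the arrays for *Nrg4* (left, 2 probes) and *Igf1* (right, 4 probes). *Igf1* probe 3 mirrors the other *Igf1* probes, and *Nrg4* probe 2 is the only 1 of these probes with all *ob/ob* arrays below all controls.

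*Metrnl* (chr11:121702427-121717389), which encodes meteorin-like, a factor released by muscle and fat that promotes browning, has 1 RefSeq transcript and 2 probes. The brighter was at 6.91, 6.56, and 5.04 in the controls and 5.78, 5.30, and 8.77 in *ob/ob* iBAT. *ob/ob* 3 stood above every other array, and *ob/ob* 1 and 2 lay between control 3 and the other controls. Mean levels were 6.17 ± 1.0 and 6.62 ± 1.88 (SD, n = 3), and the log2 fold change was 0.45 (SE 1.02, 95% interval -2.01 to 2.91, limma p = 0.672, exact permutation p = 0.80). It turned to -1.06 without control 3 and *ob/ob* 3, and to -0.54 without *ob/ob* 3 alone.

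The dimmer *Metrnl* probe was not well above background on any control (3.24, 1.81, and 1.71) and was detected on *ob/ob* 1 (3.82) and *ob/ob* 3 (5.21), but not on *ob/ob* 2 (3.30). Its *ob/ob* mean of 4.11 was at least 1.15-fold above the control bound of 3.91, which is the mean over arrays of the lowest signal called well above background. The measured control mean was 2.25. This bound rests on *ob/ob* 3, since the mean of *ob/ob* 1 and 2 was 3.56, under the control bound. Detected on fewer than 3 arrays, this probe was not tested.

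*Slit2* (chr5:47981291-48307735) encodes a large guidance protein, a fragment of which is released by beige fat and raises thermogenesis. The gene has 8 RefSeq transcripts and 1 probe, and which of the transcripts that probe reads was not analyzed. The probe was at 6.01, 6.28, and 6.84 in the controls and 6.32, 6.77, and 5.88 in *ob/ob* iBAT. The groups overlapped, with *ob/ob* 3 lowest and control 3 highest. The log2 fold change was -0.05 (SE 0.40, 95% interval -1.02 to 0.91, limma p = 0.897, exact permutation p = 0.80), and 0.35 without control 3 and *ob/ob* 3.

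**Figure D3:**
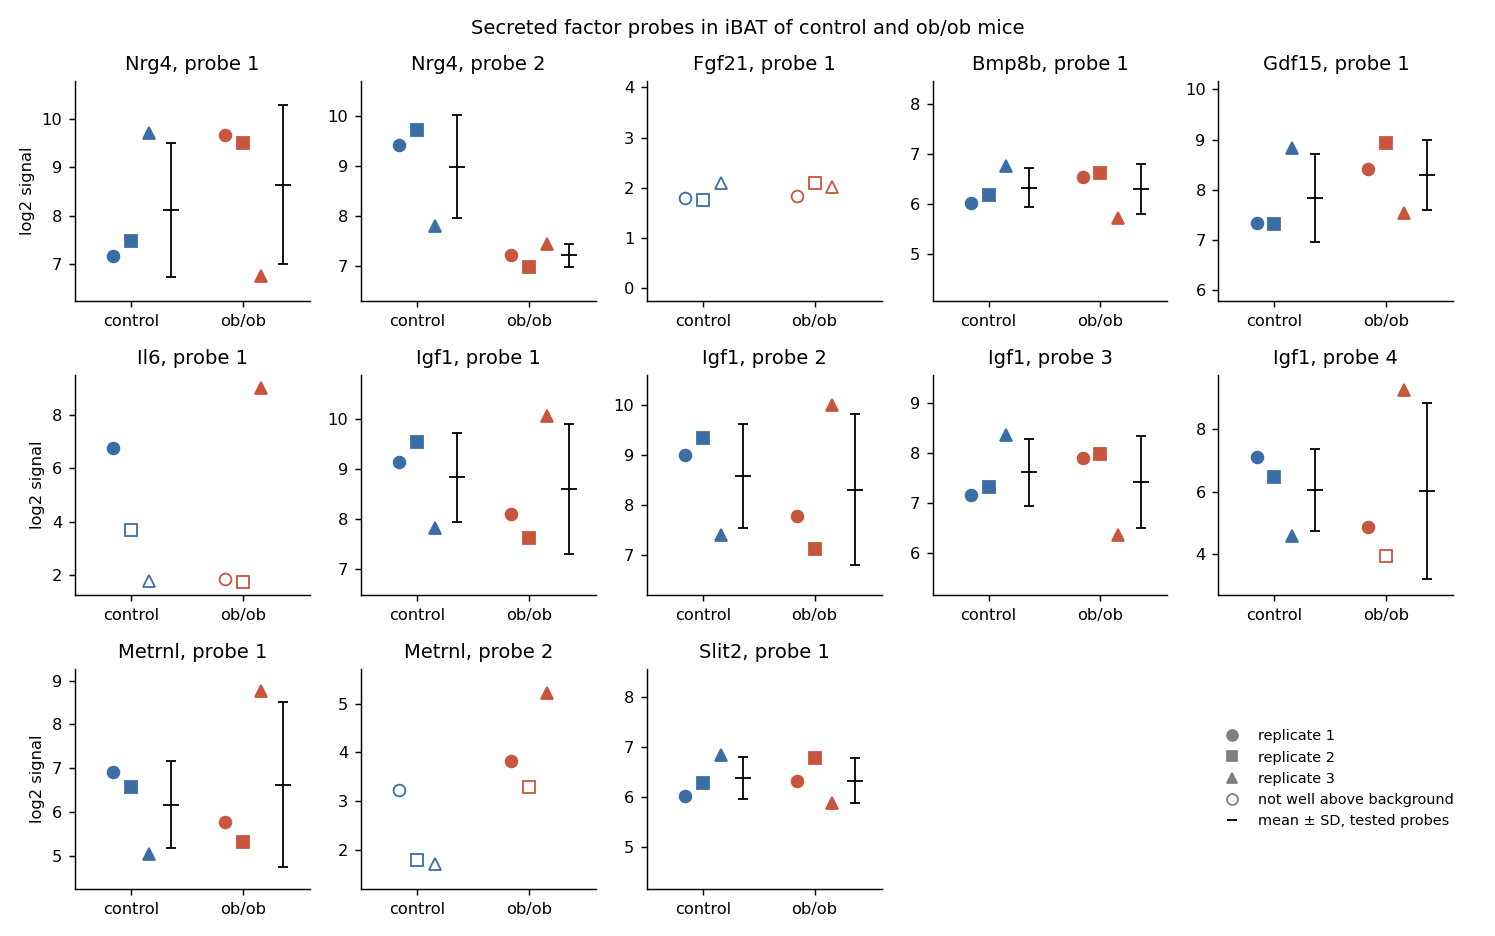
Each panel shows 1 probe of a secreted factor, with its log2 signal on the vertical axis, 1 point per array (symbols give the replicate, open symbols a signal not well above background), and the mean ± SD of each group for the tested probes. The vertical axes span different ranges. Only the second *Nrg4* probe among those tested has all *ob/ob* arrays below all controls, and *Fgf21* lies between 1.76 and 2.10 on all arrays.

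The members showed 2 patterns over the arrays, with the second *Nrg4* probe, the dimmer *Metrnl* probe, and *Fgf21* in neither. *Igf1* (probes 1, 2, and 4) and the brighter *Metrnl* probe ran with control 1, control 2, and *ob/ob* 3. *Il6* was also highest on control 1, control 2, and *ob/ob* 3. It was detected only on control 1 and *ob/ob* 3, so the order of its other arrays is uncertain. For *Metrnl*, control 3 differed by -1.70 from the mean of the other controls, and *ob/ob* 3 by 3.23 from the mean of the other *ob/ob* arrays. The brighter *Nrg4* probe, *Gdf15*, *Slit2*, *Bmp8b*, and *Igf1* probe 3 ran with control 3, *ob/ob* 1, and *ob/ob* 2. For the brighter *Nrg4* probe, these differences were 2.39 and -2.85. By contrast, control 1 and control 2 differed by 0.03 to 0.64 over the tested member probes, and *ob/ob* 1 and *ob/ob* 2 by 0.08 to 0.95.

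**Figure D4:**
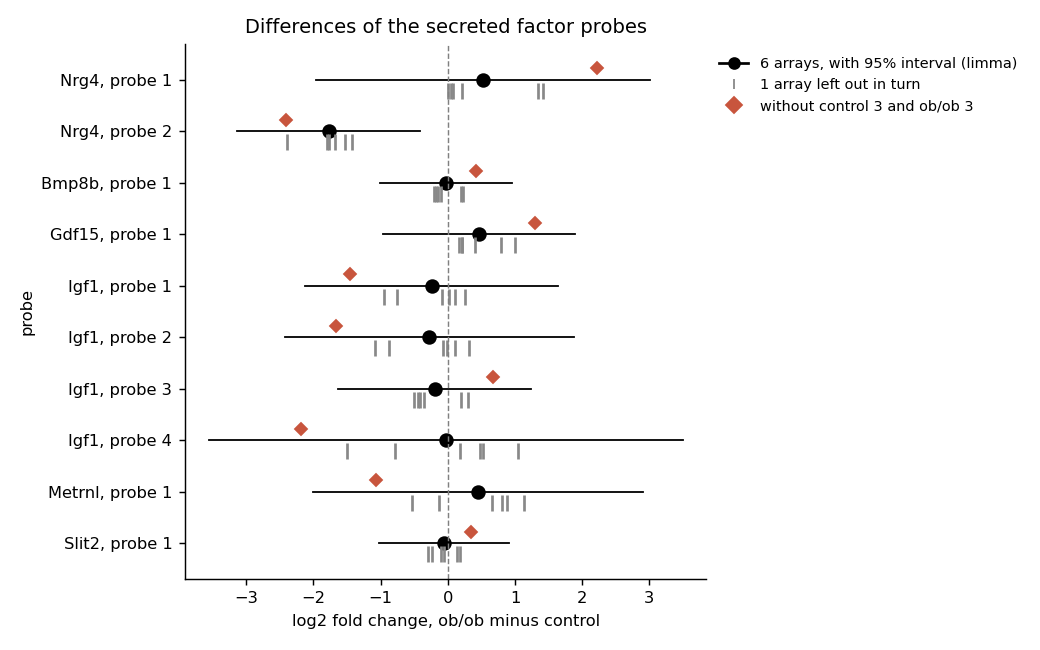
Black points give the log2 fold change (*ob/ob* minus control, horizontal axis) of the 10 tested member probes, with 95% intervals from limma as lines. Gray ticks give the value with 1 array left out in turn, and red diamonds the value without control 3 and *ob/ob* 3. The interval of *Nrg4* probe 2 (-3.13 to -0.41) is the only 1 that does not include 0.

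The genes whose pattern over the 6 arrays was most like that of each member were found among 15878 genes detected on every array, by the root mean square difference of the log2 values centered on each gene's mean. *Nrg4* (brighter probe) was most like *Muc5b*, a gel-forming mucin (0.038), and *Defb15*, a beta-defensin (0.074), where the median over all genes was 1.17. *Igf1* was most like *Pdgfa*, a growth factor for mesenchymal cells (0.133), and *Mtrex*, an RNA helicase (0.172). *Metrnl* was nearest to the proteasome subunit gene *Psmd6* (0.122) and to *Rap1gds1* (0.125). *Gdf15* was nearest to *Mcrs1* (0.105) and *Gm11541* (0.108), *Bmp8b* to *Mfsd5* (0.031) and *Gbp8* (0.040), and *Slit2* to *Akain1* (0.029) and *Ufsp1* (0.030). The last 2 members varied little over the arrays, so that small distances are common for them.

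The receptors of these ligands, together with related receptors of their families, were measured by 25 of 27 listed genes (*Robo1* and *Gfral* were not tested). Their median log2 fold change was -0.19, against the median of -0.09 over all genes. Of these receptors 19 were lower and 6 higher, where 57.2% of all genes tested were lower. In each direction 1 passed the unadjusted level, as did 1.69% of all genes (lower) and 2.04% (higher). The same all-gene shares apply to each list below. *Bmpr2*, the type II receptor for BMPs, was lower without adjustment, at 8.41, 8.71, and 8.28 in the controls and 6.51, 6.33, and 7.49 in *ob/ob* iBAT (-1.69, SE 0.42, unadjusted limma p = 0.00603, adjusted p = 1.0, exact permutation p = 0.10). The *Bmpr2* groups did not overlap, as was so in this direction for 4.22% of all genes. The gene was named for its p on these labels. *Fgfr1*, the main FGF21 receptor of fat, was at 10.56, 10.30, and 11.85 in the controls and 12.36, 12.36, and 11.77 in *ob/ob* iBAT (1.26, SE 0.50, unadjusted limma p = 0.0433, adjusted p = 1.0, exact permutation p = 0.20). Control 3 overlapped *ob/ob* 3 for *Fgfr1*, the mean of its probes gave only 0.20, and its p stayed under 0.05 in 7 of 17 alternatives. *Bmpr2* stayed under 0.05 in 16 of 17, all but the scan block, which sets only *ob/ob* 1 against control 1 and control 3. Such counts, here and below, are no independent support, because the genes were named for this p on the same arrays. Several alternatives, such as the detection filters and the authors' values, also nearly repeat the main fit.

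The receptor genes of the members, with other genes of the Robo family, were taken for their role and did not pass the unadjusted level apart from these. *Klb*, the beta-Klotho gene, differed by 0.22 (SE 0.40), *Erbb4* by -0.24 (SE 0.38), *Igf1r* by -0.13 (SE 0.85), *Il6ra* by -0.29 (SE 0.68), *Il6st* by -0.39 (SE 1.22), *Kit* by 0.83 (SE 0.71), *Robo2* by -0.16 (SE 0.32), *Robo3* by -0.26 (SE 0.45), *Robo4* by -1.32 (SE 1.34), and *Ret* by -0.19 (SE 1.16). *Erbb3*, another neuregulin receptor, singled out after its values were seen, was at 6.24, 6.43, and 9.61 in the controls and 9.57, 9.42, and 6.25 in *ob/ob* iBAT. Like the brighter *Nrg4* probe, it was high on control 3, *ob/ob* 1, and *ob/ob* 2, and it differed between groups by 0.99 (SE 1.26).

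Of the 18 genes of the IGF axis, which binds, frees, and relays IGF-1, 13 were lower and 5 higher (median -0.13). Of all genes tested, 57.2% were lower. In the IGF axis 0 genes passed the unadjusted level in either direction. The 2 with the largest differences were binding proteins. *Igfbp5* was at 10.36, 10.54, and 7.26 in the controls and 6.05, 5.41, and 10.13 in *ob/ob* iBAT (-2.19, SE 1.47, limma p = 0.186, exact permutation p = 0.20). *Igfbp7* was at 11.22, 10.81, and 7.37 in the controls and 7.29, 6.60, and 11.71 in *ob/ob* iBAT (-1.26, SE 1.62, limma p = 0.465, exact permutation p = 0.70). Both had the array pattern of the brightest *Igf1* probe, and without control 3 and *ob/ob* 3 they differed by -4.47 and -3.95.

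Other ligands of the same families had a median of 0.03 over 37 of 39 genes (*Fgf10* and *Nrg3* were not tested), with 17 lower and 20 higher and 1 in each direction past the unadjusted level. *Mstn*, or myostatin, an inhibitor of muscle growth, was at 5.11, 4.83, and 7.0 in the controls and 8.23, 8.52, and 6.77 in *ob/ob* iBAT (2.19, SE 0.75, unadjusted limma p = 0.0248, adjusted p = 1.0, exact permutation p = 0.20). Control 3 overlapped *ob/ob* 3, and the p stayed under 0.05 in 9 of 17 alternatives. *Slit1*, a paralog of *Slit2* known from the nervous system, was at 8.49, 9.05, and 9.63 in the controls and 8.22, 7.90, and 6.57 in *ob/ob* iBAT, with no overlap (-1.49, SE 0.56, unadjusted limma p = 0.0350, adjusted p = 1.0, exact permutation p = 0.10). Of all genes tested, 4.22% had no overlap in this direction. The *Slit1* p stayed under 0.05 in 8 of 17 alternatives, and its difference was -0.98 without *ob/ob* 3 and -0.69 without control 3 and *ob/ob* 3.

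Regulators of the integrated stress response, which drives *Fgf21* and *Gdf15* in other settings, were tested for 20 of 22 genes (*Aldh1l2* and *Eif2ak2* were not). They had a median of -0.10, with 12 lower, 8 higher, and 0 past the unadjusted level. *Psat1*, a serine synthesis enzyme, differed by 1.79 (SE 1.14, limma p = 0.167, exact permutation p = 0.40) and turned to -0.04 without control 3 and *ob/ob* 3. *Atf3*, a stress-induced transcription factor, differed by -1.60 (SE 0.92, limma p = 0.130, exact permutation p = 0.20). With 1 array left out in turn, the median of the list ranged from -0.81 to 0.30, so its sign was not stable. Without control 3 and *ob/ob* 3, left out for their values, it was -1.26, and the all-gene median was 0.07. Over the alternatives, the median of the ligand signal targets ranged from -1.07 to -0.22. That of the other secreted products ranged from -0.88 to 0.10, and both lists are described below. For receptors, the IGF axis, and family ligands the ranges were -0.33 to -0.04, -0.50 to -0.10, and -0.22 to 0.12.

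Among 24 of 25 other secreted products of fat (*Serpina3n* was not tested), 12 were lower and 12 higher, with a median of -0.03, and 2 lower and 1 higher passed the unadjusted level. *Lgals3bp*, a secreted glycoprotein that binds galectins, was at 11.93, 12.82, and 12.23 in the controls and 10.60, 10.78, and 7.54 in *ob/ob* iBAT (-2.69, SE 0.91, unadjusted limma p = 0.0237, adjusted p = 1.0, exact permutation p = 0.10). *Vegfa*, the growth factor that sustains the vessels of brown fat, was at 8.02, 8.56, and 7.97 in the controls and 6.77, 6.76, and 6.05 in *ob/ob* iBAT (-1.66, SE 0.37, unadjusted limma p = 0.00391, adjusted p = 1.0, exact permutation p = 0.10). *Apln*, or apelin, a vascular and metabolic peptide made by fat, was at 5.34, 4.20, and 5.05 in the controls and 5.90, 5.94, and 7.5 in *ob/ob* iBAT (1.58, SE 0.57, unadjusted limma p = 0.0314, adjusted p = 1.0, exact permutation p = 0.10). For each of these 3 genes the groups did not overlap, as was so for 4.22% of all genes (lower) and 3.78% (higher). They were named for their p on these labels, so control 3 and *ob/ob* 3 staying with their groups says nothing about the labeling. Without these arrays they differed by -1.69, -1.42, and 1.08, and with *ob/ob* 3 alone left out by -1.70, -1.28, and 1.0. With the scan as a block the differences were -1.48, -1.22, and 0.71. That fit sets only *ob/ob* 1 against control 1 and control 3, the arrays of the shared scan, so no p is read from it. As the mean of their probes, *Lgals3bp* was at -1.55 and *Vegfa* at -1.41, the latter no longer at an unadjusted limma p under 0.05. Over all 17 alternatives the p stayed under 0.05 in 13 for *Lgals3bp*, 15 for *Vegfa*, and 10 for *Apln*.

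Genes that respond to these ligands through ERK, SMAD, or STAT signaling had a median of -0.41 over 21 of 22 genes (*Bambi* was not tested), with 14 lower and 7 higher, and 1 of the lower genes passed the unadjusted level. *Cish*, a STAT5-induced inhibitor of cytokine and growth hormone signals, was at 11.16, 10.60, and 7.38 in the controls and 5.52, 5.44, and 8.72 in *ob/ob* iBAT (-3.15, SE 1.30, unadjusted limma p = 0.0497, adjusted p = 1.0, exact permutation p = 0.20). *Id1*, a BMP-induced inhibitor of differentiation, differed by -2.75 (SE 1.47, limma p = 0.108, exact permutation p = 0.20). Both were lower on control 3 than on *ob/ob* 3, and the groups overlapped. For *Cish* the p stayed under 0.05 in 7 of 17 alternatives. Over the 6 lists the median of the differences lay between -0.41 and 0.03, and 0 genes passed at an adjusted p under 0.05.

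**Figure D5:**
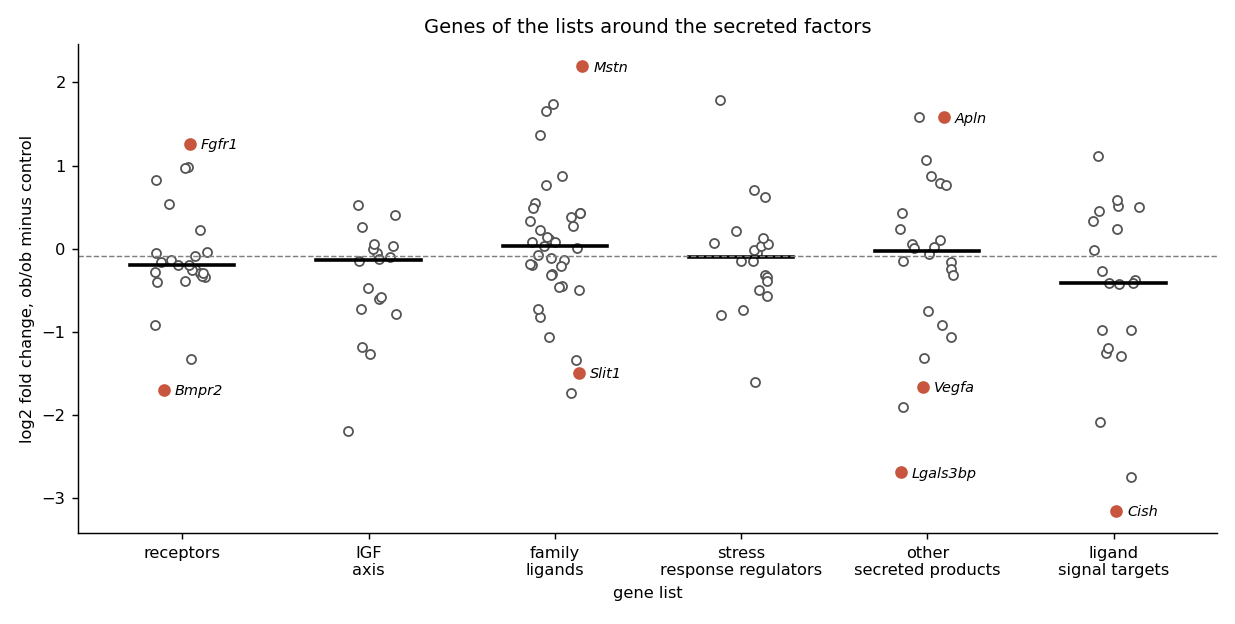
Each point is the log2 fold change (*ob/ob* minus control, vertical axis) of 1 tested gene of the 6 lists on the horizontal axis, with the list median as a black bar and the all-gene median of -0.09 as a dashed line. Red points with names mark the genes with an unadjusted limma p under 0.05, of which *Cish* (-3.15) is the lowest and *Mstn* (2.19) the highest.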

How the data were processed

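RNA of iBAT was measured on 6 Agilent 1-color arrays. Agilent Feature Extraction (version 11.0.1.1), per the labels, gave the deposited intensity of each spot, which the authors corrected for background within the array and did not normalize between arrays, with flags for signals well above background and for outliers. A second deposited table holds log2 values that had been quantile normalized in GeneSpring, and it served as an alternative. Arrays carry no counts, so the number of arrays limits the precision.

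Outlier spots (153 to 227 per array) were left out, which removed 104 of 39429 probes. Log2 intensities were averaged per probe, quantile normalized, and fitted for 35448 probes with limma 3.58.1 (R 4.3.3), which compared *ob/ob* with control. Adjusted p-values are Benjamini and Hochberg's over every probe tested. Gene counts used the brightest probe of a gene. Exact permutation tests were two-sided. Of 28623 RefSeq probes, 27174 (94.9%) were named through GRCm38.p6, whose gene positions are RefSeq's and not the probes'. Tables, motif searches, and figures used Python (version 3.11.15), pandas (2.3.3), numpy (2.4.6), scipy (1.17.1), and matplotlib (3.10.9). Scripts were tested on simulated data.

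The members and lists were chosen with earlier results of these data known. Named from each list were at most 4 genes with an unadjusted p under 0.05, or the 2 largest differences where fewer than 2 passed. Alternatives were 75th-percentile scaling, normexp background correction (offset 50), the authors' values, no detection filter, detection on all 6 arrays, the methods' t-test, an intensity trend with robust estimation, replicate and scan blocks, the mean of a gene's probes, each array left out, and control 3 and *ob/ob* 3 left out together. Protein sequences were not analyzed here.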

Additional observations from a re-analysis of the deposited data

How the results depend on the processing

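The 2-fold counts at an unadjusted limma p under 0.05 were 598 probes higher and 478 lower in *ob/ob* iBAT. They became 139 and 312 with 75th-percentile scaling, 128 and 310 with normexp, 394 and 439 with detection on all 6 arrays, 327 and 313 with the methods' t-test, 35 and 113 with the scan as a block, and 5466 and 6450 without control 3 and *ob/ob* 3. With the replicate number as a block they were 139 and 220. Same-numbered arrays deviated from their group means in opposite directions (correlations of -0.78, -0.66, and -0.85). Control 3 and *ob/ob* 3 shift their group means in opposite ways, which affects each of these correlations. The correlations therefore cannot tell whether same-numbered samples were paired. Leaving out 1 array gave 109 to 1771 higher and 172 to 1175 lower, the fewest without control 2 and the most without control 3 (without *ob/ob* 3, 1494 and 953). Probes past an adjusted p under 0.05 numbered 0, except 1 with the intensity trend and 16047 without control 3 and *ob/ob* 3, where the 2 against 2 arrays had been picked for their likeness. Members past an unadjusted p under 0.05 numbered 0, except 4 of the 6 tested without these arrays. In that fit 16047 of 35448 probes passed even after adjustment, so the 4 are not read as particular to the members. The all-gene median of -0.09 was -0.30 with 75th-percentile scaling.

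Of 26 genes or probes followed, 16 kept their direction under every alternative, and 404 of 436 values did. Part of this count was fixed in advance. The detection filters, the methods' t-test, the intensity trend, and the replicate block leave each difference as it was. Many of the genes had also been named for their p or the size of their difference. The counts of alternatives with an unadjusted p under 0.05 share these limits. *Nrg4* probe 1 turned to -0.62 as the mean of its probes. *Bmp8b* turned to 0.0034 with normexp, 0.14 with the scan block, and 0.42 without control 3 and *ob/ob* 3, and ranged from -0.20 to 0.22 with 1 array left out. With the scan block *Igf1* probe 3 was 0.15, *Metrnl* -0.19, and *Bmp8a* 0.56. *Igf1* probe 4 was 0.16 with 75th-percentile scaling and 0.22 with normexp. Without control 3 and *ob/ob* 3, *Igf1* probe 3 was 0.67, *Metrnl* -1.06, *Slit2* 0.35, *Bmp8a* 0.48, and *Psat1* -0.038. With 1 array left out, the 4 *Igf1* probes ranged from -0.96 to 0.25, -1.08 to 0.32, -0.50 to 0.30, and -1.51 to 1.04, *Metrnl* from -0.54 to 1.14, *Slit2* from -0.29 to 0.19, and *Bmp8a* from -0.56 to 0.51. The cause of these changes was not tested. *Il6*, *Fgf21*, and the dimmer *Metrnl* probe were limited by signal over background.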
